A study of Mus musculus with 12 samples.

Results

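The 36 genes described here are interferon response genes, the transcripts that a cell makes more of after an interferon has bound its receptor. They were taken by symbol from a named list out of the 27179 genes of a count table from mouse mammary epithelium, and all 36 were found. All 36 also passed the filter on low counts that left 14903 genes for testing, and the member with the fewest counts in any group of 3 libraries had 8.

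Interferons signal through a small relay. A receptor on the cell surface switches on JAK kinases, these activate STAT proteins, and STAT2 travels to the nucleus with IRF9 to bind a short DNA motif called the interferon-stimulated response element. Interferon gamma acts mainly through another motif, the gamma-activated site. The induced genes make proteins that sense viral RNA, block translation or budding of viruses, tag proteins with ISG15, attack vacuoles that hold pathogens, cut peptides for antigen display and recruit lymphocytes. Many epithelia keep a low level of this programme without infection.

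The libraries came from basal cells, the contractile outer layer of the mammary ducts, and from luminal cells, the inner layer that includes the cells able to make milk. All mice were female, and their age is not given in the sources used here. Controls carried Foxp1(fl/fl), that is, floxed alleles of the forkhead transcription factor gene Foxp1 with no Cre named, and the knockout groups were MMTV-cre/Foxp1(fl/fl). The MMTV promoter drives Cre in mammary epithelium and also in some other tissues, such as salivary gland. There were 3 libraries in each of the 4 groups, described as biological replicates. Nothing in the labels ties a library to a particular animal, so the p-values measure the spread between these libraries.

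Total counts were 9769361 to 11133908 per library, and 15449513 in luminal knockout replicate 3. Levels below are CPM, counts scaled to a common library total with a TMM factor, which adjusts for a few genes that take many reads. Markers placed the fractions as labelled: 6 of 6 basal markers were called lower and 7 of 8 luminal markers higher in luminal than in basal controls. The shares of all genes called there were 16.8% lower and 16.3% higher. Reads of Foxp1 itself went against the label. Its level was 62.0 to 82.3 CPM in luminal controls and 150 to 161 CPM in luminal knockouts, a called rise of 1.07 on the log2 scale (SE 0.19, adjusted p = 0.0161). In basal cells it was not called, at 0.22 (adjusted p = 0.926). A gene-level count includes reads outside the deleted exons and is a partial check only. The libraries are therefore called knockout-labelled, and every direction below rests on that label. Transcripts of 6 salivary gland genes summed to 10860 to 119300 CPM in luminal controls and 19770 to 83580 CPM in luminal knockout-labelled libraries. These genes did not move alike. Of the 5 tested, 1 was called higher and 1 lower in luminal cells, with log2 folds from -9.469 to 3.606. Smr3a was at 2247 to 22930 CPM in luminal controls and 6.406 to 30.78 CPM with the knockout label. Prol1 went the other way, at 2.497 to 16.49 CPM in luminal controls and 76.6 to 206.5 CPM with the label.

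The 250 bases before the transcription start were read for 27 of the 36 genes from RefSeq sequences on GRCm38. The other 9, Zbp1, Mx1, Mx2, Oas2, Dhx58, Usp18, Parp9, Parp14 and Rtp4, had no entry. The response element was searched as GAAANNGAAA and the gamma-activated site as TTCNNNGAA, with N any base, on both strands. At least 1 response element match lay in 12 of the 27 promoters, or 44.4%, against 936 of 27025 genes with a promoter sequence, or 3.46%. A gamma-activated site match lay in 8 of 27, or 29.6%, against 2197 of 27025, or 8.13%. The stretches below belong to the 4 genes that were called in a knockout comparison and hold the response element. They are shown because they carry the same letters at different distances. Capitals mark the response element matches only, written 5′ to 3′ on the strand of the gene, and a match on the opposite strand reads as its reverse complement. A gamma-activated site match 53 bases before the start in Gm12250 and 128 bases before it in Bst2 is not marked.
Gm12250: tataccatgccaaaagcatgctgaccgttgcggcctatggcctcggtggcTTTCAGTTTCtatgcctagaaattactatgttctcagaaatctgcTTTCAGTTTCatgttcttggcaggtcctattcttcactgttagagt
Cxcl10: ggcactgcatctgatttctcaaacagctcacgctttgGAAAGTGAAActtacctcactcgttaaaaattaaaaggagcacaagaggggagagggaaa
Bst2: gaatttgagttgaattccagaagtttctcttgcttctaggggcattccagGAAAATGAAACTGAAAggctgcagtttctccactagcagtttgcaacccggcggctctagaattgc
Gbp2: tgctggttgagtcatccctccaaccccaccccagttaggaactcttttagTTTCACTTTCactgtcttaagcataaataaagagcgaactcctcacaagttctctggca
The Gm12250 stretch is chr11:58183702-58183842 on the plus strand, and its response element matches, both on the opposite strand, end 37 and 82 bases before the start. The Cxcl10 stretch is chr5:92349043-92349139 on the minus strand, with a match on the same strand 204 bases before the start. In Bst2, chr8:71537537-71537652 on the minus strand, 2 overlapping response element matches lie 115 and 121 bases before the start. The Gbp2 stretch, chr3:142620554-142620662 on the plus strand, has an opposite-strand match 50 bases before the start. A match describes the letters and is no evidence of binding.

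In luminal cells, 5 of the 36 genes rose in the knockout-labelled libraries and 0 fell, at a Benjamini-Hochberg adjusted p under 0.05 over all tested genes in edgeR's quasi-likelihood test. They were Usp18, Gm12250, Bst2, Cxcl10 and Gbp2, with folds between 2.06 and 5.84. Gm12250 passed the filter on low counts only through the knockout-labelled libraries. Among all 14903 genes, 2.21% were called higher in this comparison. The 3 knockout-labelled values stood above all 3 control values for 24 of the 36 genes, against 13.1% of all genes. The log2 fold was above 0 for 35 of 36, against 47.4% of all genes, and its median was 0.91, against -0.03 over all genes. Its sign changed in at least 1 alternative fit for 3 members. In bulk libraries such as these, fewer cells of a type and less RNA per cell cannot be told apart.

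Same-numbered luminal control and knockout-labelled libraries deviated together, so a fit that blocks on replicate number is given beside this count. With the block and all 12 libraries 16 members rose, against 4.65% of all genes called higher, and these 16 included the 5. With the block and the 6 luminal libraries alone 23 of the 35 members tested rose, against 6.37% of all genes, and Rsad2, Usp18 and Gbp2 had the lowest adjusted p (0.00422, 0.00607 and 0.00799). That fit left far fewer residual degrees of freedom, the values that measure the spread, than the 8 of the main fit. The pairing behind both blocked fits was read from these same counts. These limits hold wherever the block is named below. The count of 5 rested on single libraries. It was 1 without luminal control replicate 1, luminal knockout replicate 2 or luminal knockout replicate 3, 3 without luminal control replicate 2 or basal control replicate 1, and 12 without basal control replicate 3. Usp18 was called in all 24 alternatives run for it, and the other 4 genes were each lost in some. DESeq2 called 14 members higher, and edgeR on the luminal libraries alone called 1, Usp18. No share over all genes is given beside the counts with single libraries left out, DESeq2 or the luminal libraries alone. Those counts show only how the calls depend on the fit and the libraries.

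In basal cells, 2 of the 36 genes rose in the knockout-labelled libraries, Gm12250 and Cxcl10, and 0 fell. Of all genes, 0.611% were called higher there. The limit given above for Gm12250 holds here too. The groups did not overlap for 11 members, all higher with the knockout label, against 8.15% of all genes. The log2 fold was above 0 for 35 of 36, against 48.8% of all genes, and its median was 0.53, against -0.01 over all genes. Its sign changed in at least 1 alternative fit for 9 members. Both basal calls depended on single libraries. The count was 1 without basal control replicate 3, any of the 3 luminal controls or luminal knockout replicate 1, and 0 without any of the other 7 libraries. Without basal control replicate 3 the 1 gene was Usp18, so both Gm12250 and Cxcl10 were lost there. DESeq2 called 5. Markers of fibroblasts also stood higher in every basal knockout-labelled library, as given with the marker sums.

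**Figure D1:**
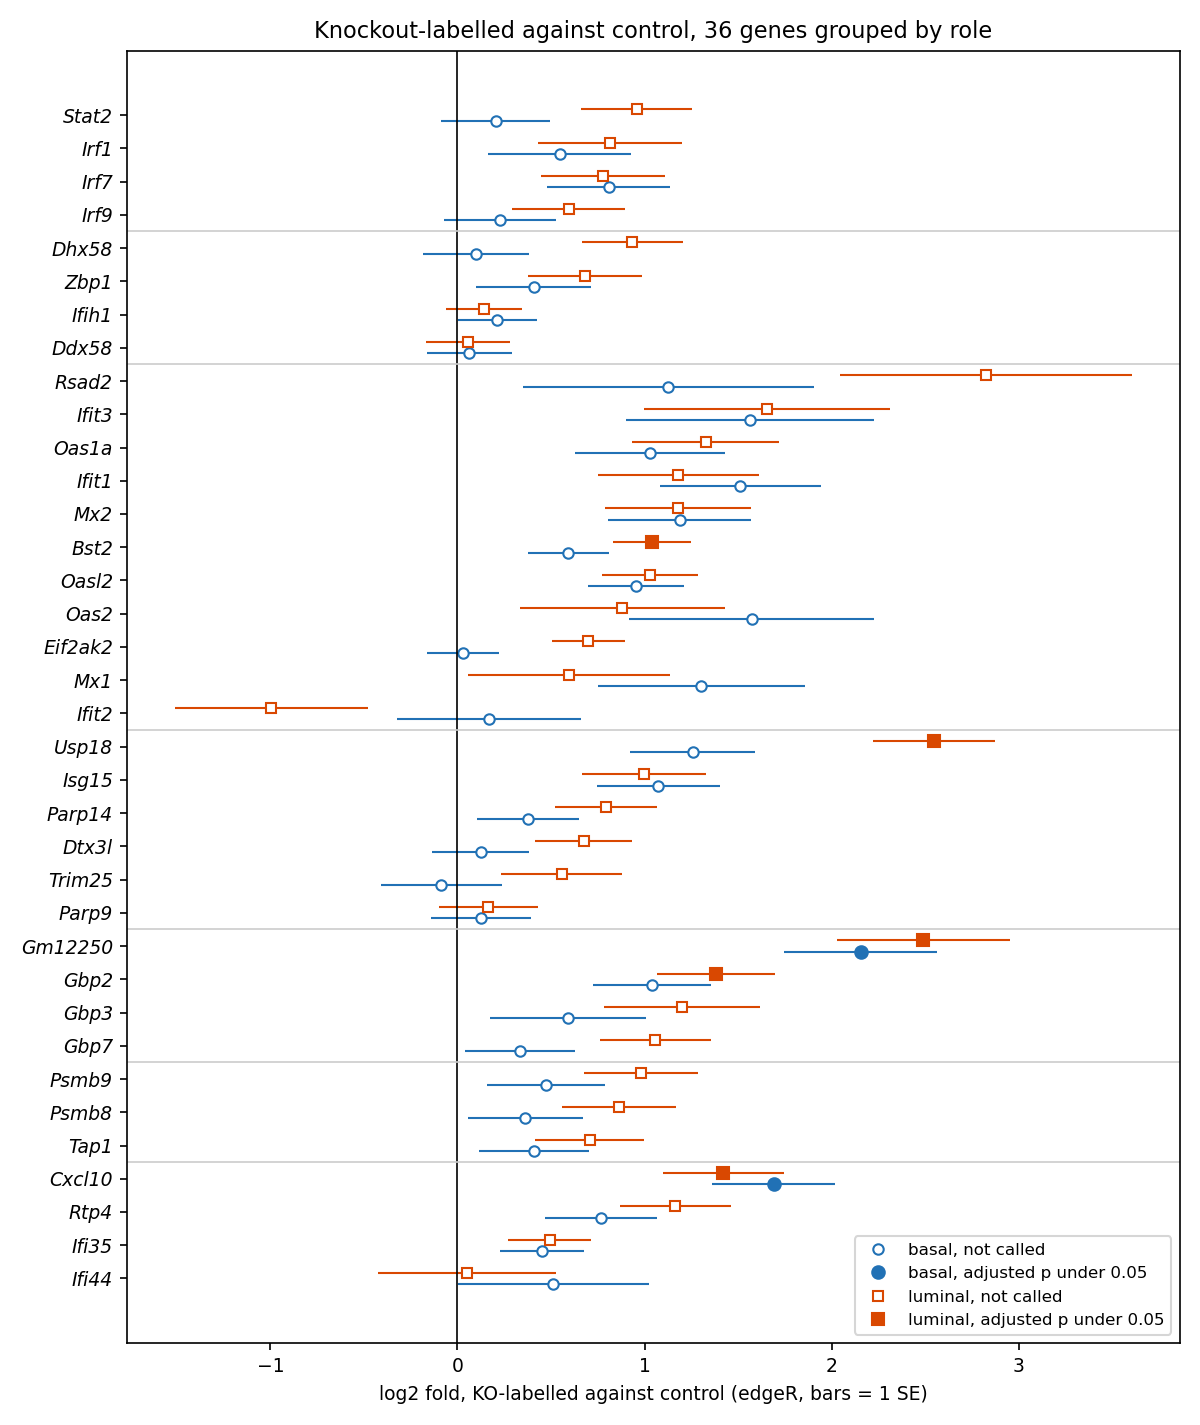
Log2 fold of each of the 36 genes, knockout-labelled against control, in basal (circles) and luminal (squares) cells, grouped by role from transcription factors at the top to the remaining genes at the bottom; bars are 1 standard error and filled symbols have an adjusted p under 0.05. Of the 36 genes, 35 lie above 0 in each cell type, with Trim25 the exception in basal cells and Ifit2 in luminal cells.

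The transcription factors of the set were Stat2 and Irf9, which act together as described above, Irf7, which amplifies production of type I interferon, and Irf1, an early target of interferon gamma. None of the 4 was called in either cell type by the fit without the replicate block, to which every call in the accounts by role refers unless the block is named. With the block on the luminal libraries alone all 4 rose there (adjusted p = 0.0113 for Stat2, 0.0275 for Irf1, 0.0297 for Irf9 and 0.0422 for Irf7), and with the block on all 12 libraries 0 did. These blocked fits called 6.37% and 4.65% of all genes higher. In luminal cells all 4 had groups that did not overlap, against 13.1% of all genes in this direction. Stat2 was at 82.2 ± 18.0 CPM in luminal controls and 160 ± 29.0 CPM in knockout-labelled libraries (SD, n = 3; log2 fold 0.96, SE 0.30, adjusted p = 0.111). Irf1 followed at 0.82, Irf7 at 0.78 and Irf9 at 0.59. In basal cells the log2 folds were 0.20 for Stat2, 0.55 for Irf1, 0.81 for Irf7 and 0.23 for Irf9, and every group pair overlapped. Basal control replicate 3 stood low for these genes: Irf1 was at 111 CPM there and at 357 and 422 CPM in the other basal controls.

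The sensors had the lowest median log2 fold of the role groups in luminal cells, 0.41, and in basal cells, 0.16. Ifih1, which encodes MDA5, and Ddx58, which encodes RIG-I, both recognise viral RNA in the cytoplasm, Dhx58 encodes their relative LGP2, and Zbp1 detects left-handed nucleic acid. None of the 4 was called, with the block or without it. The luminal log2 folds were 0.05 for Ddx58 and 0.14 for Ifih1, whose groups overlapped, and 0.68 for Zbp1 and 0.93 for Dhx58, whose groups did not. Dhx58 stood at 8.23, 7.49 and 6.74 CPM in luminal controls 1, 2 and 3. With the knockout label it was at 13.7, 11.2 and 18.1 CPM. Basal log2 folds of the 4 ran from 0.06 to 0.41.

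The antiviral effectors were the largest group, with 11 genes. Their median log2 fold was 1.04 in luminal and 1.13 in basal cells. In luminal cells 1 of 11 was called and in basal cells 0, against 2.21% and 0.611% of all genes called higher. With the replicate block on all 12 libraries 8 of 11 rose in luminal cells: Ifit1, Ifit3, Oas1a, Oasl2, Rsad2, Mx2, Bst2 and Eif2ak2. With the block on the luminal libraries alone 7 did, the same genes without Oasl2. Those fits called 4.65% and 6.37% of all genes higher. Groups did not overlap for 5 of 11 in luminal and 7 of 11 in basal cells, against 13.1% and 8.15% of all genes. Bst2, or tetherin, which holds budding virus particles at the cell surface, was the called gene. It was at 37.8, 43.0 and 26.9 CPM in luminal controls and at 60.1, 82.0 and 79.7 CPM in luminal knockout-labelled replicates 1, 2 and 3. Every knockout-labelled value lay above every control value (fold 2.06, log2 1.04, SE 0.21, adjusted p = 0.0223). In basal cells Bst2 stood at 7.99, 10.2 and 7.76 CPM in controls and 12.2, 14.7 and 12.3 CPM in knockout-labelled libraries, again without overlap but not called (log2 fold 0.59, SE 0.22, adjusted p = 0.348). Leaving out luminal control replicate 1, luminal knockout replicate 2 or luminal knockout replicate 3 ended the luminal call, and its adjusted p reached 0.095 over all alternatives.

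Rsad2, or viperin, which makes a nucleotide that stops viral polymerases, had the highest log2 fold of the 36 in luminal cells and the widest error among them. Its luminal values were 4.12, 3.14 and 12 CPM in controls and 25.4, 29.4 and 80.9 CPM in knockout-labelled libraries. Replicate 3 was the highest of each group, and the groups did not overlap. The log2 fold was 2.83 (SE 0.78, adjusted p = 0.0798), and with the replicate block it was 2.87 (SE 0.21, adjusted p = 0.000393). In basal cells the values 1.87, 1.34 and 7.67 CPM in controls overlapped with 4.36, 5.02 and 14.6 CPM in knockout-labelled libraries (log2 fold 1.13, SE 0.78).

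The oligoadenylate synthetase family makes the messenger that switches on RNase L, which degrades RNA. Oasl2, a family member, was at 18.8, 18.5 and 13.3 CPM in luminal controls and 35.4, 25.1 and 42.7 CPM in knockout-labelled libraries (log2 fold 1.03, SE 0.26, adjusted p = 0.0556). Its basal values were 12.2, 14.7 and 11.5 CPM in controls and 30.1, 17.9 and 26.7 CPM with the knockout label (log2 fold 0.95, SE 0.26, adjusted p = 0.146). Knockout-labelled replicate 2 was the lowest of its group in both cell types, and neither pair of groups overlapped. Oas1a had 5.99, 2.68 and 3.32 CPM in luminal controls and 11, 7.52 and 11.6 CPM with the knockout label, and in basal cells 2.07, 3.39 and 2.86 CPM against 8.31, 3.58 and 5.21 CPM. These groups did not overlap either, and the log2 folds were 1.33 and 1.03, not called. Oas2 overlapped in both cell types, with log2 folds of 0.88 in luminal and 1.57 in basal cells. Oas1a has near-identical relatives such as Oas1g, and reads of these genes may have been shared between them.

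The IFIT proteins bind foreign RNA and lie side by side on chromosome 19, Ifit2 and Ifit3 6585 bases apart. Ifit1 was at 5.5, 6.61 and 8.59 CPM in basal controls and 21.2, 13.9 and 24.1 CPM in basal knockout-labelled libraries, with no overlap (log2 fold 1.51, SE 0.43, adjusted p = 0.172). In luminal cells 3.27, 5.36 and 11.3 CPM overlapped with 12.3, 11.1 and 21.6 CPM (log2 fold 1.18). Ifit3 had log2 folds of 1.66 in luminal and 1.56 in basal cells, not called, at group means of 1.98 to 7.12 CPM. Ifit2 was the luminal exception. It stood at 2.34, 9.34 and 3.52 CPM in luminal controls and 2.69, 2.95 and 2.0 CPM in knockout-labelled libraries, so that control replicate 2 alone was high and the groups overlapped (log2 fold -0.99, SE 0.51, adjusted p = 0.355). Its basal log2 fold was 0.17. Ifit1 lies within Ifit1bl1, and how reads of overlapping genes were assigned is not given in the sources used here.

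Of the remaining effectors, Eif2ak2 encodes PKR, the kinase that halts translation on double-stranded RNA. It was at 45.5, 36.3 and 33.7 CPM in luminal controls and 73.4, 52.4 and 61.7 CPM in knockout-labelled libraries, with no overlap (log2 fold 0.70, SE 0.20, adjusted p = 0.0815). Its basal log2 fold was 0.03. The GTPases Mx1 and Mx2 block incoming viral genomes, and RefSeq lists both as transcribed pseudogenes on this assembly. Mx2 was at 7.99, 7.5 and 5.82 CPM in basal controls and 21.7, 10.3 and 16.6 CPM in knockout-labelled libraries, without overlap (log2 fold 1.19, SE 0.38, adjusted p = 0.248). In luminal cells its log2 fold was 1.18, with groups that overlapped at knockout-labelled replicate 2. Mx1 had log2 folds of 0.60 in luminal and 1.30 in basal cells at levels of 0.647 to 3.67 CPM.

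ISG15 is a ubiquitin-like protein that is joined to other proteins, and USP18 takes it off and also blocks the type I interferon receptor. Usp18 had the lowest p of the 36 in luminal cells. It was at 7.20, 4.81 and 9.25 CPM in luminal controls and 35.5, 39.4 and 49.2 CPM in knockout-labelled libraries. The lowest knockout-labelled value was over the highest control value by a wide gap, and the fold was 5.84 (log2 2.54, SE 0.33, adjusted p = 0.0035). Over the 24 alternatives its luminal log2 fold stayed between 2.33 and 2.80. In basal cells 2.18, 2.14 and 4.62 CPM in controls and 7.70, 6.36 and 7.39 CPM with the knockout label did not overlap, and the log2 fold was 1.26 (SE 0.33, adjusted p = 0.137). The gene overlaps the predicted gene Gm44148, so reads there may belong to either.

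Isg15 itself was not called. It was at 9.23, 14.7 and 12.2 CPM in basal controls and 28.6, 14.4 and 33.2 CPM in basal knockout-labelled libraries (log2 fold 1.07, SE 0.33, adjusted p = 0.216), and knockout-labelled replicate 2 lay among the controls. In luminal cells 8.70 ± 1.06 CPM in controls and 17.3 ± 5.32 CPM in knockout-labelled libraries (SD, n = 3) did not overlap (log2 fold 0.996, SE 0.33, adjusted p = 0.142). Trim25 encodes a ubiquitin and ISG15 ligase that activates RIG-I, Dtx3l and Parp9 encode partners in a ubiquitin ligase, and Parp14 encodes an ADP-ribosyltransferase. Their luminal log2 folds were 0.56, 0.67, 0.16 and 0.79, and their basal ones -0.09, 0.12, 0.12 and 0.38, none of them called. Only Parp14 of these 4 had luminal groups that did not overlap. Of the 6 genes of this group, 1 rose with the block on all libraries, Usp18, and 3 with the block on the luminal libraries alone, Usp18, Isg15 and Trim25. The shares of all genes were 4.65% and 6.37%. Dtx3l and Parp9 overlap by 558 bases, and their counts may not be independent.

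The GTPases of the set act against pathogens inside vacuoles. All 4 had luminal groups that did not overlap, and 2 of 4 were called there, against 13.1% and 2.21% of all genes. The median log2 fold was 1.29. With the replicate block all 4 rose in luminal cells, and 3 of the 3 tested in the luminal libraries alone, against 4.65% and 6.37% of all genes. Gm12250, the immunity-related GTPase also called Irgb10, was called in both cell types. It passed the filter on low counts only through the knockout-labelled libraries. Its entry into the test thus depended on the direction that was then called. With no count filter the luminal call stayed and the basal call was lost. It is a low transcript, at 0.281, 0.185 and 0.302 CPM in luminal controls, a total of 8 counts, and 0.898, 2.15 and 1.40 CPM in knockout-labelled libraries (log2 fold 2.49, SE 0.46, adjusted p = 0.0167). In basal cells it was at 0.726, 0.447 and 0.739 CPM in controls and 2.63, 2.51 and 3.48 CPM with the knockout label (log2 fold 2.16, SE 0.41, adjusted p = 0.0427). Knockout-labelled and control values were separate in both cell types. Leaving out luminal control replicate 1 or 2 or luminal knockout replicate 2 or 3 ended the luminal call. The basal call was lost in 15 of 24 alternatives, among them the removal of any library other than luminal knockout replicate 1, with adjusted p up to 0.227.

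Gbp2, a guanylate-binding protein that coats such vacuoles, was at 30.5, 28.1 and 46.6 CPM in luminal controls and 79.2, 63.5 and 131 CPM in knockout-labelled libraries. Replicate 3 was the highest of both groups, which did not overlap (fold 2.60, log2 1.38, SE 0.31, adjusted p = 0.0402). The call was lost in 9 of 24 alternatives, 8 of them the removal of a single library: luminal control replicate 1 or 2, any luminal knockout-labelled library, basal control replicate 1 or 2, or basal knockout replicate 3. Basal Gbp2 stood at 25.4, 24.8 and 23.1 CPM in controls and 62.9, 32.1 and 55.9 CPM with the knockout label (log2 fold 1.04, SE 0.31, adjusted p = 0.205). Gbp7 had luminal values of 14.0, 11.7 and 14.3 CPM in controls and 35.2, 20.3 and 27.9 CPM with the knockout label (log2 fold 1.06, SE 0.30, adjusted p = 0.0827). Gbp3, 9865 bases from Gbp7 on chromosome 3, had a luminal log2 fold of 1.20 and a basal one of 0.59, and the guanylate-binding genes are similar enough for reads to have been shared.

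Antigen processing was represented by neighbours on chromosome 17. Psmb8 and Psmb9 encode immunoproteasome subunits and Tap1 a subunit of the peptide transporter; 226 bases separate Psmb9 from Tap1 and 970 separate Tap1 from Psmb8. None was called, and in luminal cells all 3 had groups that did not overlap, against 13.1% of all genes. With the replicate block Psmb9 rose in luminal cells, and all 3 rose with the block on the luminal libraries alone (adjusted p = 0.0253 to 0.0456). The shares of all genes called higher were 4.65% and 6.37%. Psmb9 was at 16.8 ± 3.94 CPM in luminal controls and 33.1 ± 7.29 CPM with the knockout label (SD, n = 3; log2 fold 0.98, SE 0.31, adjusted p = 0.115). Psmb8 had a log2 fold of 0.86 and Tap1 of 0.71. In basal cells the 3 log2 folds were 0.36 to 0.47, with overlap in each, and basal control replicate 3 was the lowest basal library for all 3.

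Cxcl10, the chemokine that draws T cells through CXCR3, was called in both cell types. Its luminal values were 17.6, 41.4 and 20.6 CPM in controls and 51.4, 73.0 and 88.8 CPM in knockout-labelled libraries. Control replicate 2 was high within its group but below every knockout-labelled library (fold 2.68, log2 1.42, SE 0.32, adjusted p = 0.0399). In basal cells 16.9, 21.9 and 15.1 CPM in controls rose to 69.0, 57.2 and 47.8 CPM (fold 3.22, log2 1.69, SE 0.33, adjusted p = 0.0469). In luminal cells the call was lost in 8 of 24 alternatives, among them the removal of luminal control replicate 1 or 3, luminal knockout replicate 2 or 3, basal control replicate 1 or basal knockout replicate 2. The basal call was lost in 11 of 24, among them the removal of any basal library or any luminal knockout-labelled one. Cxcl10 lies within Art3, and whether counting used strand is not given in the sources used here.

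Rtp4, a chaperone of cell surface receptors, was at 14.4, 12.7 and 13.1 CPM in luminal controls and 37.8, 21.9 and 30.4 CPM with the knockout label, without overlap (log2 fold 1.17, SE 0.29, adjusted p = 0.0591). Its basal log2 fold was 0.77. Ifi35 had log2 folds of 0.49 in luminal and 0.45 in basal cells, and Ifi44 of 0.05 and 0.51, none called. With the replicate block Rtp4 rose in luminal cells, and with the luminal libraries alone Ifi35 did too. Rtp4, Stat2, Isg15, Ifih1, Gbp2, Gbp3, Dhx58, Eif2ak2 and Trim25 also overlap another annotated gene over part of their length, and their counts are uncertain to that extent.

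**Figure D2:**
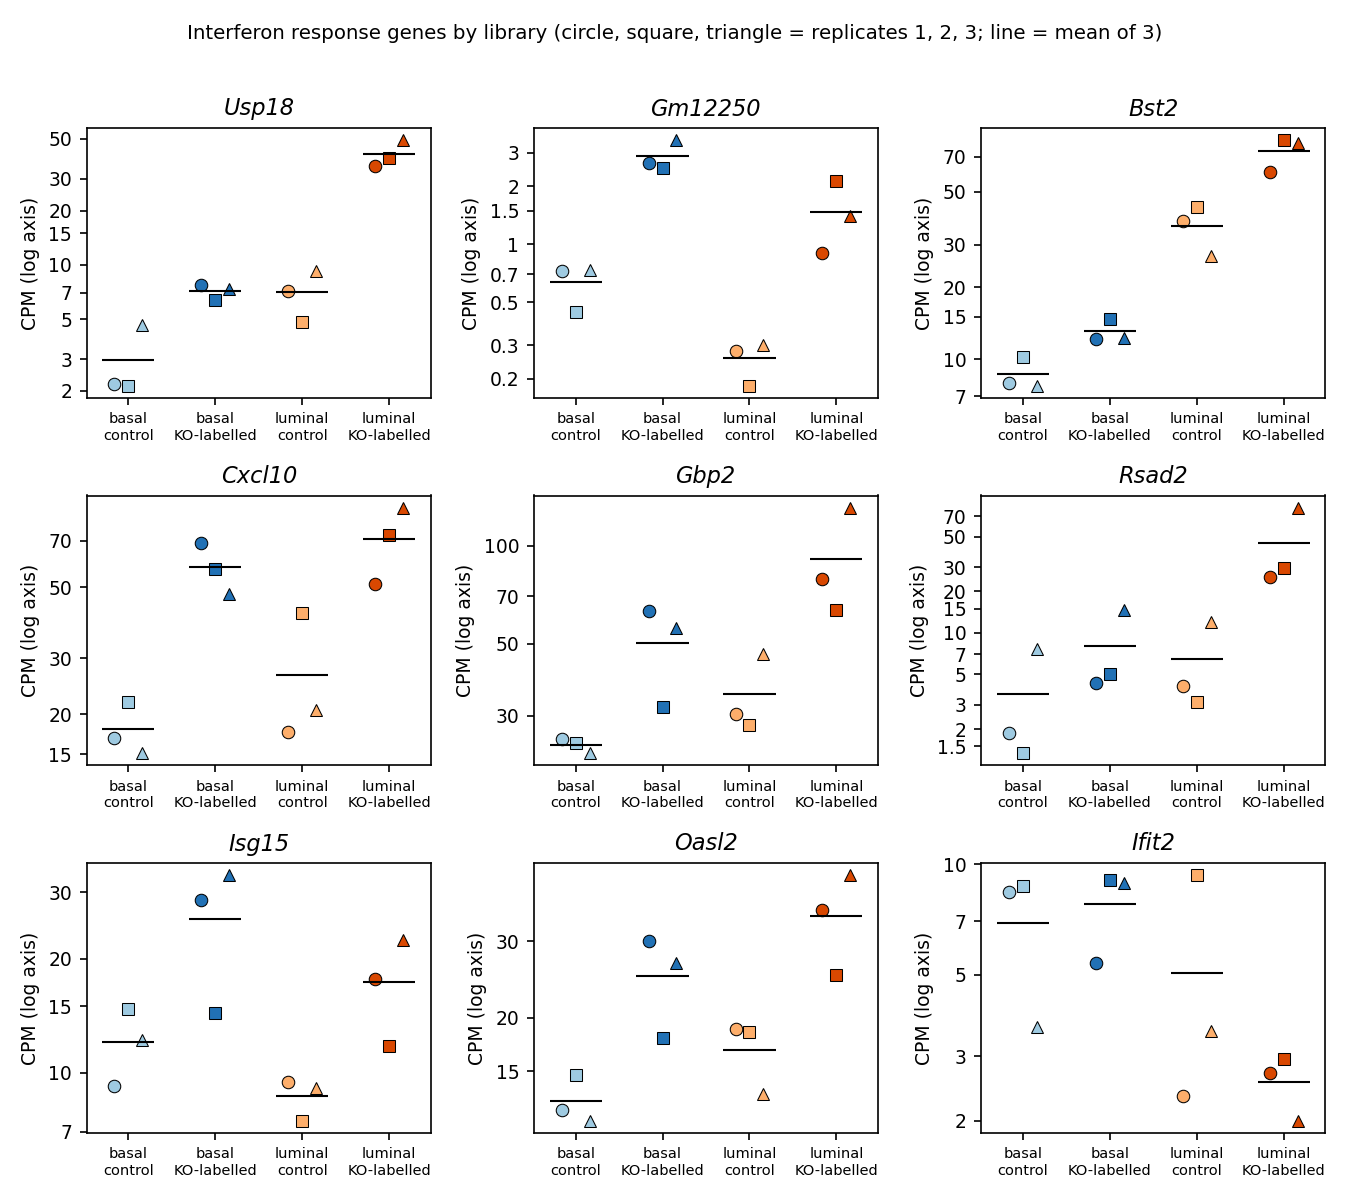
CPM of 9 of the genes in each of the 12 libraries on log axes; circles, squares and triangles are replicates 1, 2 and 3 and lines are group means. Usp18, Gm12250, Bst2, Cxcl10, Gbp2, Rsad2, Isg15 and Oasl2 have luminal knockout-labelled values above all luminal controls, while Ifit2 does not.

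The libraries of a group did not carry the difference equally. Each value was set against the mean of the controls of its cell type as log2(CPM + 1), where the added 1 shrinks differences of low genes. Among basal knockout-labelled libraries, replicates 1, 2 and 3 had 30, 15 and 23 members above all 3 controls, with median differences of 0.72, 0.28 and 0.62. Replicate 2 also had 4 members below all 3 controls, and the other basal knockout-labelled libraries had 0. Among luminal knockout-labelled libraries the counts were 29, 24 and 33 and the medians 0.74, 0.52 and 1.06. Replicate 2 was thus the lowest of its group in both cell types. Paired by number, 35, 20 and 34 of the 36 genes were higher in the basal knockout-labelled library, and 35, 30 and 35 in the luminal one. In the basal pair numbered 2 the median log2 ratio was 0.05, against 0.73 and 0.85 in the other pairs.

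**Figure D3:**
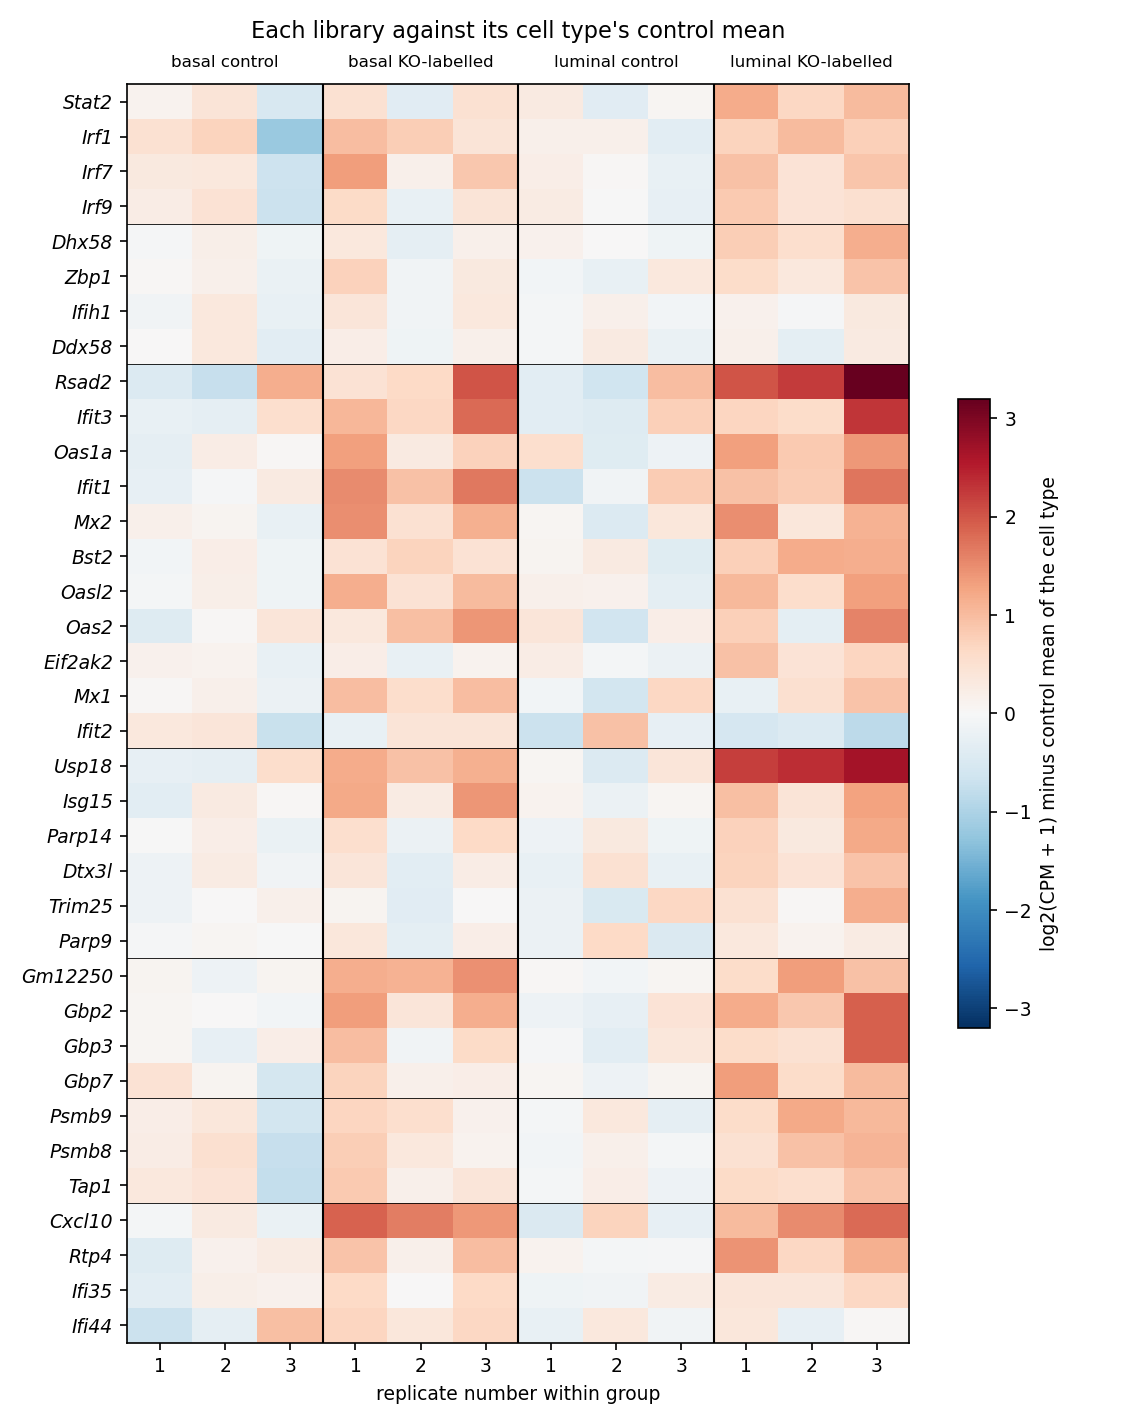
Each of the 36 genes (rows, grouped by role) in each of the 12 libraries (columns) as log2(CPM + 1) minus the mean of the 3 controls of that cell type; red is above and blue below that mean. Basal knockout-labelled replicate 2 is paler than replicates 1 and 3, and luminal knockout-labelled replicate 3 is the darkest column, with a median of 1.06.

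Whether the luminal and basal effects differed was tested directly. For 25 of the 36 genes the luminal log2 fold exceeded the basal one, against 47.9% of all genes with a positive difference, and the median difference was 0.30. The sign of the difference changed in at least 1 alternative fit for 16 of the 36. None of the 36 was called different in edgeR's interaction test, in which 0.275% of all genes were called, and 2 had an unadjusted p under 0.05. DESeq2, limma-voom and the replicate block also called 0. The 2 genes were Usp18 (log2 difference 1.29, SE 0.46, adjusted p = 0.331), whose 95% interval ran from 0.24 to 2.34, and Eif2ak2 (0.67, SE 0.28, adjusted p = 0.436). No difference between the cell types was thus detectable for a member with 3 libraries a group, which does not show that the effects are alike. For Cxcl10, called in both, the 95% interval of the difference was -1.31 to 0.77.

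Levels in the controls differed between cell types for some members. These controls are also the reference of the knockout comparisons. In luminal controls 10 of 36 were called higher and 1 lower than in basal controls, against 16.3% and 16.8% of all genes. With the replicate block, which applies to these controls too, the counts were 11 and 2, given without a share over all genes. The 10 were Bst2, Ifih1, Oas2, Psmb9, Psmb8, Ifi44, Usp18, Dhx58, Parp9 and Rtp4, and the lower gene was Irf9. Mean Bst2 was 8.64 ± 1.34 CPM in basal controls and rose to 35.9 ± 8.19 CPM in the luminal ones (SD, n = 3; log2 fold 2.05, SE 0.22, adjusted p = 4.01e-05). Oas2 was at 0.803 ± 0.491 and 9.90 ± 3.62 CPM (log2 fold 3.59, SE 0.65, adjusted p = 0.00148), the largest difference of the 36. Irf9 had 154 ± 57.3 CPM in basal controls and 75.3 ± 14.4 CPM in the luminal ones (log2 fold -1.03, SE 0.30, adjusted p = 0.0212). All 4 transcription factors had log2 folds below 0 and all 4 sensors above 0 in this comparison. The 10 became 5 without basal control replicate 1, and the Irf9 call was lost without that library, basal control replicate 2, luminal control replicate 2 or luminal control replicate 3. The count of lower genes became 3 without basal control replicate 3. The median log2 fold of the 36 was 0.43, and 0.14 without luminal control replicate 3.

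Among knockout-labelled libraries 15 members were called higher in luminal cells and 1 lower, against 19.2% and 21.4% of all genes. The 15 held the 10 above together with Dtx3l, Eif2ak2, Gbp2, Rsad2 and Trim25. Usp18 had 7.15 ± 0.701 CPM in the basal and 41.4 ± 7.05 CPM in the luminal libraries (SD, n = 3; log2 fold 2.53, SE 0.33, adjusted p = 0.000135). Ifit2 was the lower gene, at 7.77 ± 2.08 and 2.55 ± 0.492 CPM (log2 fold -1.61, SE 0.52, adjusted p = 0.027). The number higher fell to 9 without basal knockout replicate 2, 10 without luminal knockout replicate 3, and the Ifit2 call was lost without basal knockout replicate 3, luminal knockout replicate 1 or luminal knockout replicate 3. The number lower was 2 without basal knockout replicate 2 and 3 without basal control replicate 3.

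Per length of transcript, as RPKM from the deposited gene lengths, the order of the genes also differed between the cell types. In basal controls Irf1 was the most abundant of the 36 at 88.4 ± 48.8 RPKM, followed by Irf9 at 57.4 ± 21.3 and Stat2 at 29.0 ± 9.03 RPKM (SD, n = 3). The spread of Irf1 and Irf9 overlapped. In luminal controls Bst2 at 46.7 ± 10.7, Psmb8 at 45.0 ± 4.35 and Irf1 at 42.4 ± 8.17 RPKM led and were within their spread of each other. In luminal knockout-labelled libraries the same 3 led at 96.1 ± 15.6, 81.8 ± 16.9 and 74.7 ± 8.69 RPKM. The lowest levels were Oas2 at 0.208 ± 0.127 RPKM in basal and Gm12250 at 0.0947 ± 0.0230 RPKM in luminal controls.

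The promoter matches were then set beside the folds as a description. In luminal cells the 12 genes holding a response element match had log2 folds of 0.96 to 2.83 with a median of 1.26, and the 15 without one -0.99 to 1.03 with a median of 0.67. In basal cells the ranges were 0.20 to 2.16, median 1.06, and -0.09 to 0.95, median 0.36. The 12 were Bst2, Cxcl10, Gbp2, Gbp3, Gbp7, Gm12250, Ifit1, Ifit3, Isg15, Oas1a, Rsad2 and Stat2. Outside the 36, 1.74% of 344 tested genes with a match were called higher in luminal cells and 2.11% of 10989 without one, with median log2 folds of 0.05 and -0.03. In basal cells the shares were 0.872% and 0.482%, and the medians 0.03 and -0.01. Genes with no match in this window, such as Oasl2, were not searched elsewhere.

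**Figure D4:**
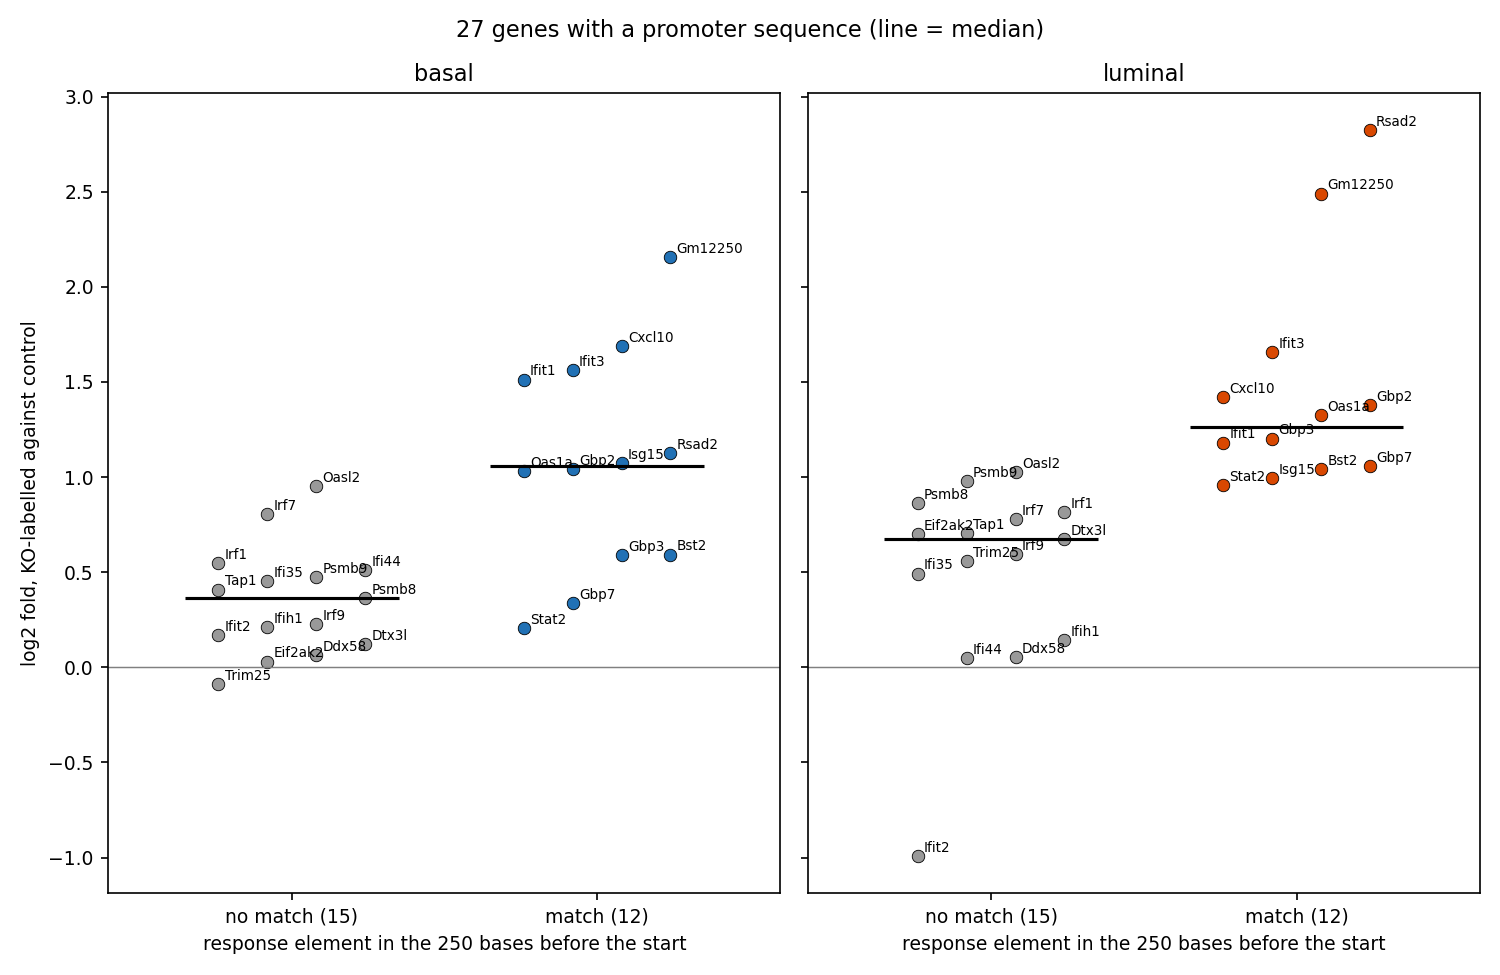
Log2 fold, knockout-labelled against control, of the 27 genes with a promoter sequence, split by whether the 250 bases before the start hold a response element match (12) or not (15), in basal (left) and luminal (right) cells; lines are medians. The medians are 1.06 and 0.36 in basal and 1.26 and 0.67 in luminal cells.

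Other genes of the pathway were read from lists. The 21 interferon genes in the table, the ligands, were all below the filter. Of these, 12 had 0 counts in all 12 libraries, which allows up to 0.0231 CPM for each over the libraries together, a limit that covers counting error only. The rest had 71 counts in all for Ifnk, an epithelial type I interferon, 37 for Ifnl3, 11 for Ifnb1 and 9 or fewer for Ifnl2, Ifnab, Ifng, Ifna13, Ifne and Ifnz. These few reads were uneven over libraries. Luminal knockout replicate 3, the library with the highest member median, had Ifnl3 at 1.8 CPM, Ifnl2 at 0.60 CPM and Ifnb1 at 0.53 CPM, against at most 0.27, 0 and 0.20 CPM in any other library. Ifnk was highest in basal control replicate 3 at 3.33 CPM and basal knockout replicate 3 at 1.96 CPM. Their part in the members' values was not tested. Of 22 tested receptor and signalling genes 1 rose in luminal and 0 in basal cells, 0 fell in either, and the median log2 folds were 0.09 in luminal and 0.14 in basal cells. Jak2, a kinase of the interferon gamma receptor, was not called, with a luminal log2 fold of 1.21 (adjusted p = 0.0674).

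Of 17 tested sensors and adaptors that act before interferon is made, Trex1, an exonuclease that removes stray DNA, rose in luminal cells (log2 fold 1.0, SE 0.22, adjusted p = 0.0361) and 0 rose in basal cells, and 0 fell in either. Tmem173, which encodes the DNA pathway adaptor STING, had log2 folds of 0.62 in luminal and 0.78 in basal cells, not called. The medians of this list were 0.13 and 0.05. A list of 73 further tested interferon-stimulated genes had a median log2 fold of 0.60 in luminal and 0.31 in basal cells. In luminal cells 7 of 73 rose and 0 fell, among them Irgm2 (1.65), Cmpk2 (1.57), Xaf1 (1.49), Oas1g (1.39), Tor3a (1.36) and Parp12 (0.79). In basal cells 2 of 73 rose and 0 fell, Sp100, a nuclear body protein (2.0, SE 0.37, adjusted p = 0.038), and Lgals3bp, a secreted galectin ligand (1.56, SE 0.28, adjusted p = 0.0356). The shares of all genes called higher were 2.21% and 0.611%. Groups did not overlap, higher with the knockout label, for 32 in luminal and 21 in basal cells of the 73, against 13.1% and 8.15% of all genes, and for 2 and 0 in the lower direction.

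Leukocytes also express many of these genes, so markers of other cells were read in each library. In luminal cells 5 leukocyte markers summed to 1.03 to 9.65 CPM in controls and 0.50 to 0.93 CPM with the knockout label, with Cd53 at 0 counts in the knockout-labelled libraries. The 9 T and NK cell markers summed to at most 2.01 CPM in luminal controls and 0.36 CPM with the knockout label, where 6 of 9 were at 0, and the 6 B and plasma cell markers to at most 4.62 and 3.49 CPM. The 8 macrophage markers summed to 226 to 271 CPM in controls and 126 to 154 CPM with the knockout label, most of it from Cd14. Cd14 was at 197 to 259 CPM in luminal controls and 111 to 129 CPM with the knockout label, so the sum follows this 1 gene and not the list. Of the 5 macrophage markers tested, 3 had luminal log2 folds above 0, and the median was 0.01. Csf1r, the receptor for the macrophage growth factor, went the other way without overlap, from 0.936, 1.02 and 3.82 CPM to 6.58, 5.37 and 13.8 CPM (log2 fold 2.16, SE 0.71, adjusted p = 0.134, not called). The 5 dendritic cell markers, without Bst2, summed to at most 1.41 CPM in luminal libraries. In basal cells leukocyte markers summed to 0.93 to 12.6 CPM in controls and 2.13 to 2.61 CPM with the knockout label, T and NK cell markers to at most 3.14 and 0.76 CPM, and B and plasma cell markers to 9.83 to 11.2 and 3.26 to 4.26 CPM.

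Fibroblast markers were higher with the knockout label in basal cells. Their 8 genes summed to 455 to 586 CPM in basal controls and 1953, 2808 and 1714 CPM in basal knockout-labelled replicates 1, 2 and 3. All 8 had groups that did not overlap, and Pdgfra and Dpp4 rose (log2 folds 2.41 and 2.85, adjusted p = 0.0138 and 0.0395). Over all genes 8.15% did not overlap in this direction and 0.611% were called higher. Replicate 2, with the highest fibroblast sum, had the lowest median of the 36 genes, 0.28. In luminal cells the fibroblast sums of 73.5 to 397 CPM and 130 to 365 CPM overlapped and 0 of 8 was called. Epithelial markers of the other layer differed too. The 8 luminal markers summed to 917, 719 and 817 CPM in basal controls and 1512, 1045 and 1254 CPM in basal knockout-labelled replicates 1, 2 and 3, with no overlap and 0 of 8 called. Singly, 5 of the 8 had basal log2 folds above 0, and the lowest was -1.24. In luminal cells the 6 basal markers summed to 111 to 655 CPM in controls and 299 to 722 CPM with the knockout label. Of these, Trp63, a basal transcription factor, rose from 2.04 to 15.7 CPM in controls to 27.5 to 71.8 CPM (log2 fold 2.80, SE 0.58, adjusted p = 0.0253). The 6 did not move alike: 3 had luminal log2 folds above 0, with a median of -0.10 and a lowest value of -2.17. Oxtr went from 25.5, 35.1 and 5.33 CPM to 3.69, 6.80 and 4.20 CPM. Endothelial markers summed to 93.2 to 155 CPM in luminal controls and 66.1 to 78.7 CPM with the knockout label, and to 62.7 to 146 and 80.7 to 98.8 CPM in basal cells. Vwf made up a large part of the luminal sums, at 49.3 to 77.3 CPM in controls and 54.05 to 55.3 CPM with the label. The 6 luminal log2 folds ran from -2.14 to -0.22, and 0 was called. The part of these cells in the differences of the 36 genes was not tested.

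**Figure D5:**
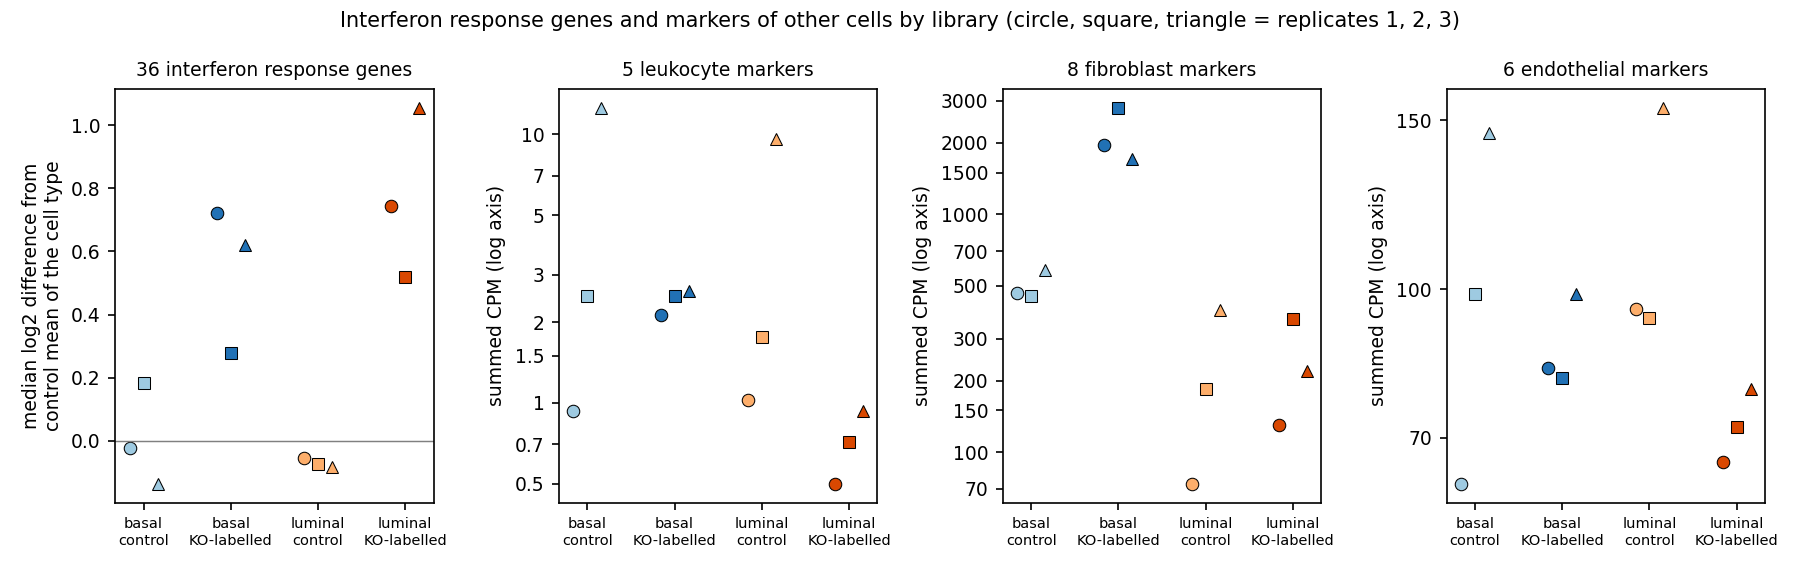
From left to right, per library, the median difference of the 36 genes from the control mean of the cell type on the log2(CPM + 1) scale, and the summed CPM of 5 leukocyte, 8 fibroblast and 6 endothelial markers on log axes; circles, squares and triangles are replicates 1, 2 and 3. In luminal knockout-labelled libraries the leukocyte sums of 0.50 to 0.93 CPM lie below all luminal controls, and in basal knockout-labelled libraries the fibroblast sums of 1714 to 2808 CPM lie above all basal controls.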

How the data were processed

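RNA was sequenced from 12 libraries, 4 groups of 3. Per the labels' protocols, an RNeasy kit gave total RNA, which TruSeq RNA v2 turned into libraries for an Illumina HiSeq 2000. The deposited values are counts of reads per Entrez gene with no normalization by the authors. CASAVA 1.8.2, featureCounts and mm10 are named in the submitters' processing notes, and no aligner, annotation or strand setting is. The library files and the series table differed in 0 values, and 859 genes have no symbol.

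Counts were fitted with edgeR 4.0.16 in R 4.3.3: TMM factors, default expression filter by group (14903 genes, at least 99.847% of the counts of each library), 4 group means, robust quasi-likelihood F test with 8 residual degrees of freedom, and Benjamini-Hochberg adjustment over all tested genes at 0.05. The common coefficient of biological variation was 32.6%. SEs come from the log2 fold and its F statistic. The script was first tested on simulated counts. Alternatives were other scalings, filters, DESeq2 1.42.0, limma-voom 3.58.1, fewer groups, a replicate block and leaving out each library. Taking out salivary genes and Rn45s was chosen after seeing the data.

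Replicate numbers are shared between groups. Deviations of same-numbered libraries from their group means correlated at 0.36, 0.37 and 0.60 between luminal controls and knockout-labelled libraries and at 0.33, 0.43 and 0.47 between luminal and basal controls, so the numbers were taken to pair these. No replicate pair agreed within sampling noise, with a chi-square per degree of freedom of at least 11.8 over genes. All 36 members are named. Values per library are given for members called in a knockout comparison and for those of lowest p, up to 10 per comparison, and, chosen after their values were seen, for Ifit2, Dhx58 and the other cell type of a named gene. From the other lists, genes that were called and some of lowest p are named. Of the genes on the other lists, 1 that was called is not reported here by name and stays in the counts of its lists. The members and lists were chosen with earlier results of these data known. Gene positions are RefSeq on GRCm38. Promoter stretches run from the outermost match with 50 bases on each side, within the bases before the start.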

Additional observations from a re-analysis of the deposited data

How the results depend on the processing

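Over the alternatives run, 0 of the members' called values turned direction. Uncalled values changed sign for 9 members in the basal effect, 3 in the luminal effect and 16 in the difference of the effects. Of the scalings, library size alone moved the median of all genes by over 0.1, to 0.15 in the comparison of luminal with basal knockout-labelled libraries. In basal cells the 2 members higher became 0 with library size alone, 1 with no count filter, 5 with DESeq2, 1 with only the groups compared, and 0 to 1 with single libraries left out. Same-numbered basal control and knockout-labelled libraries correlated at -0.07, 0.40 and 0.18, so pairing by number was seen for replicate 2 only. Whether the other basal numbers pair is not settled by these values, and the deposited column names give same-numbered libraries the same letter. A replicate block gave 6 over all 12 libraries and 0 over the basal libraries alone. Basal calls over all genes, in either direction, were 100 in the main fit and 412 with DESeq2. They were 236 with the block over all 12 libraries and 16 with it over the basal libraries alone. In luminal cells the 5 higher became 14 with DESeq2, 1 with only the groups compared, 16 with the replicate block, 23 with the block on the groups compared, and 1 to 12 with single libraries left out. For luminal against basal controls, the 10 higher became 6 with only the groups compared and 5 to 10 with single libraries left out. The 1 lower became 2 with DESeq2 size factors, DESeq2 or the replicate block, and 0 to 3 with single libraries left out, where the median ran from 0.14 to 0.51. For luminal against basal knockout-labelled libraries the same-numbered correlations were 0.09, 0.47 and 0.45. The numbers thus paired replicates 2 and 3, and replicate 1 only weakly. The 1 lower became 2 with limma-voom or the replicate block and 3 with only the groups compared. It became 6 with the block on those groups and 0 to 3 with single libraries left out. The 15 higher became 16 with the replicate block, 18 with the block on those groups, and 9 to 16 with single libraries left out. The cause of these moves was not tested. Where no share over all genes stands beside a count, it shows only how the calls depend on the fit and the libraries. With salivary genes and Rn45s taken out, chosen after seeing the data, 2 members rose in basal and 6 in luminal cells. Low counts limit Gm12250, Mx1, Oas2 and Ifit3 most.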
